A study of Mus musculus with 6 samples.

Results

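The 4 genes described here encode HCN2, HCN3 and HCN4, pore subunits of the hyperpolarization-activated cyclic nucleotide-gated channels, and PEX5L (also called TRIP8b), the auxiliary subunit of these channels in the brain. They were taken by gene symbol from the 22180 genes that were measured, and each of the 4 was measured by 1 probe set that names no other gene. The samples were whole hippocampus of male C57BL/6J-background mice at postnatal day 56, 3 from Trpc4 wild-type animals and 3 carrying a Trpc4 knockout, with 1 expression array per sample. The deleted part of Trpc4 and the cells that lost it are not described in the labels. Nor do the labels say that the replicates came from separate animals, so the p-values rest on a spread between samples that could be partly technical.

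HCN channels open when the membrane hyperpolarizes and carry an inward current of sodium and potassium ions, known as the h-current. This current helps to set the resting potential and input resistance of neurons. Cyclic AMP binds a domain in the cytoplasmic tail of each subunit and makes opening easier, most of all in HCN2 and HCN4. In hippocampal pyramidal cells the current is strong in the distal dendrites, where it limits the summation of synaptic input. PEX5L is a relative of the peroxisomal import receptor PEX5. It binds the carboxyl-terminal end of HCN subunits, steers their transport to and from the cell surface, and opposes the action of cyclic AMP.

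The arrays carried 41345 probe sets, read as log2 signals, with array medians between 4.73 and 4.75. The median over all probe sets of the mean signal, 4.72, is called the array-wide median below and serves to tell dim probe sets from brighter ones. The deleted gene gave a lower signal in the knockout arrays. Trpc4 was 8.06, 8.23 and 8.06 in wild-type replicates 1 to 3 and 7.39, 7.55 and 7.31 in knockout replicates 1 to 3, a difference of -0.70 ± 0.09 (standard error), with a limma adjusted p of 0.738 over all genes. Of 20 markers of hippocampal fields, 20 were measured and 19 were above the array-wide median. Signals come from bulk tissue, so that fewer cells of a type and less RNA per cell cannot be told apart.

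Promoter windows of 2 of the 4 genes, Hcn2 and Hcn4, were in the RefSeq promoter table (GRCm38.p6) and those of Hcn3 and Pex5l are not shown. The 250 bases before each start are shown to set the sequences of these family members side by side, with GC boxes (GGGCGG, on either strand, so also CCGCCC) in capitals. The Hcn2 window is chr10:79716384-79716633 and the Hcn4 window is chr9:58822699-58822948, both on the plus strand and 5′ to 3′.
Hcn2: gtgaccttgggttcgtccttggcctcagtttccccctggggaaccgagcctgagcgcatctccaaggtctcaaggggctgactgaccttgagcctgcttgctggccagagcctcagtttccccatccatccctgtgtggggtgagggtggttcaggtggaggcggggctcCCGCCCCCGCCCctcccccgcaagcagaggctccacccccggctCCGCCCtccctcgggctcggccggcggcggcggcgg
Hcn4: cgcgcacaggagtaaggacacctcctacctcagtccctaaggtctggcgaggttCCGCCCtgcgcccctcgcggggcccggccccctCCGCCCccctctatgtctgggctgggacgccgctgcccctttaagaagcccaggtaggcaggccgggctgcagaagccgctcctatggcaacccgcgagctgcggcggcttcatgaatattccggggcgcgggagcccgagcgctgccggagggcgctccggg
Both windows were rich in G and C, at 70.4% for Hcn2 and 71.2% for Hcn4, where the median of 32851 windows was 52.4%. The Hcn2 window held 16 CG pairs and the Hcn4 window 25, and 25.4% and 10.7% of all windows held at least as many. GC boxes numbered 3 in the Hcn2 window and 2 in that of Hcn4, and 8.5% and 16.7% of all windows held at least as many. At least 1 was present in 32.7% of all windows. Neither window held the letters TATAAA on either strand, which 12.4% of all windows did. These matches describe the sequence and were not tied to the array signals.

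None of the 4 genes passed the test for a difference between knockout and wild-type hippocampus, a limma fit over all 22180 genes with Benjamini-Hochberg adjustment at 0.05. The same test called 0% of all genes, so the count of 0 of 4 is that of the background. At an unadjusted p under 0.05 it was also 0 of 4, where 5.75% of all genes passed. Pex5l and Hcn2 had higher mean signals in knockout and Hcn3 and Hcn4 lower ones, with a median difference of 0.0075 over the 4 genes and of 0.013 over all genes. Differences ran from -0.12 to 0.10 on the log2 scale, and all 4 of the 95% intervals included 0.

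**Figure D1:**
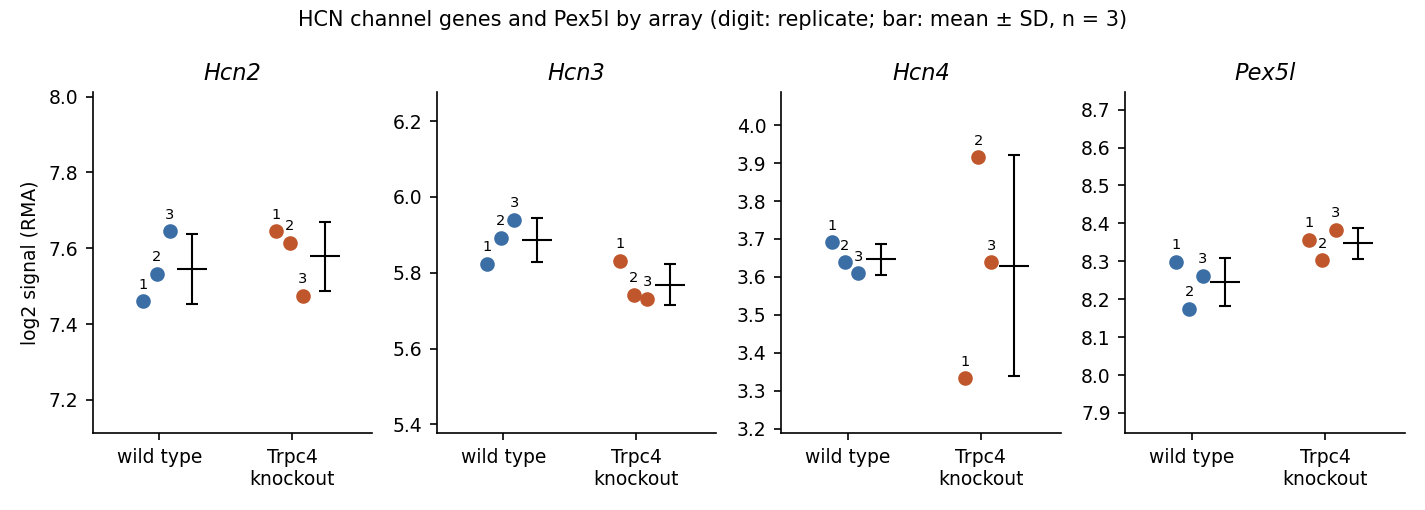
Log2 signal of Hcn2, Hcn3, Hcn4 and Pex5l on each array (points, with the replicate number above) in wild type and Trpc4 knockout, with the mean ± SD of 3 arrays as bars; every panel spans the same height on its own log2 axis. The groups overlap for Hcn2, Hcn3 and Hcn4, the Pex5l groups are separated by a narrow gap, and Hcn4 spreads from 3.33 to 3.92 in knockout.

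Hcn2, a subunit found throughout the brain and known also from oligodendrocytes, had signals of 7.46, 7.53 and 7.64 in wild-type replicates 1 to 3. In knockout replicates 1 to 3 it had 7.65, 7.62 and 7.47. The lowest and the second lowest values came from different genotypes, and the groups overlapped over almost their whole range. The wild-type mean was 7.55 ± 0.09 and the knockout mean 7.58 ± 0.09 (SD, n = 3 each). The difference was 0.03 ± 0.09 (standard error), with a 95% interval of -0.17 to 0.23 and a limma adjusted p of 0.974. On the linear scale knockout stood at 102% of wild type, with an interval of 89.0% to 118%. The sign turned without wild-type replicate 1 (-0.01) or knockout replicate 1 (-0.0011).

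Hcn3, a subunit with little response to cyclic AMP, gave 5.82, 5.89 and 5.94 in wild-type replicates 1 to 3 and 5.83, 5.74 and 5.73 in knockout replicates 1 to 3. Knockout replicates 2 and 3 lay below every wild-type value, and knockout replicate 1 lay just above wild-type replicate 1, so the groups overlapped. The means were 5.89 ± 0.06 and 5.77 ± 0.05 (SD, n = 3 each). The difference of -0.12 ± 0.07 was larger than the SD within either group but did not pass the test (limma p 0.159, adjusted p 0.894, 95% interval -0.29 to 0.06). It corresponds to 92.2% of the wild-type signal, within an interval of 81.7% to 104%. Leaving out single arrays kept the sign, between -0.15 (without knockout replicate 1) and -0.09 (without wild-type replicate 3). An exact two-sided permutation test gave p = 0.2, and 3 against 3 samples cannot go below 0.1.

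Hcn4, the main subunit of the cardiac pacemaker and in the brain known for its expression in thalamus, gave a dim signal. Its mean signal of 3.64 over the 6 arrays was under the array-wide median of 4.72, and its standard error was the largest of the 4 genes. The wild-type arrays agreed closely, at 3.69, 3.64 and 3.61 in replicates 1 to 3. The knockout arrays did not, at 3.33, 3.92 and 3.64, so that the highest and the lowest of all 6 values were both from knockout. The SD was 0.04 in wild type and 0.29 in knockout (n = 3 each). The difference was -0.02 ± 0.14, with a 95% interval of -0.34 to 0.31 and a limma adjusted p of 0.994. Its sign depended on which array was included, from -0.16 without knockout replicate 2 to 0.13 without knockout replicate 1, and it was 0.0049 without wild-type replicate 1. In linear terms the interval ran from 78.8% to 124% of the wild-type signal, the widest of the 4 genes.

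Pex5l, the auxiliary subunit gene, had signals of 8.299, 8.175 and 8.262 in wild-type replicates 1 to 3. In knockout replicates 1 to 3 it had 8.357, 8.303 and 8.384. All 3 knockout values were above all 3 wild-type values, as for 6.41% of all genes, and the gap between knockout replicate 2 and wild-type replicate 1 was narrow. With each array centred on its median the groups overlapped (8.283 in knockout replicate 2 and 8.308 in wild-type replicate 1), and with quantile normalization they did not. The means were 8.25 ± 0.06 and 8.35 ± 0.04 (SD, n = 3 each). The difference was 0.10 ± 0.07, with a 95% interval of -0.07 to 0.27, a limma p of 0.205 and 0.90 after adjustment. This is 107% of the wild-type signal, within an interval of 95.3% to 121%. An exact two-sided permutation test gave its lowest possible p, 0.1. Without single arrays the difference lay between 0.07 (without wild-type replicate 2) and 0.13 (without wild-type replicate 1).

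**Figure D2:**
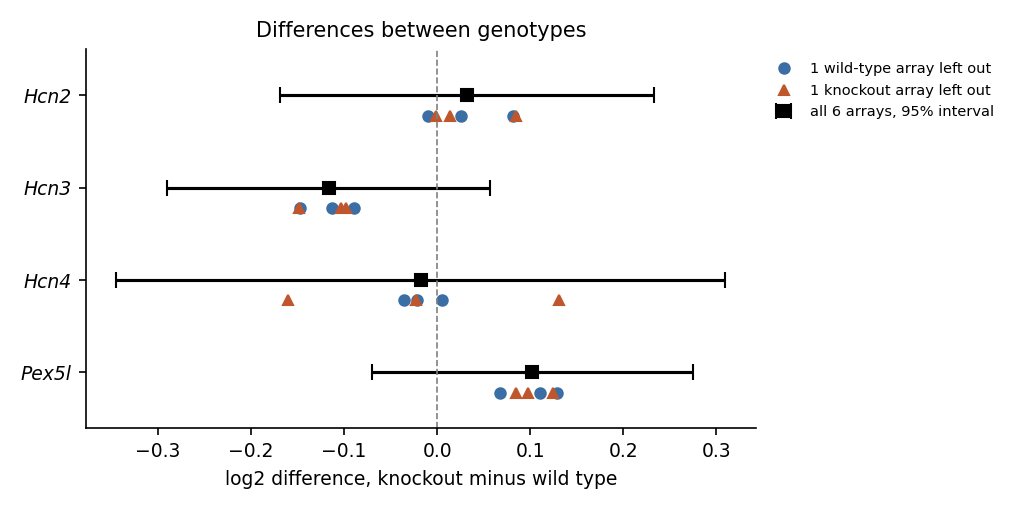
Log2 difference, knockout minus wild type, for each gene with all 6 arrays (squares, bars for the 95% interval of the limma fit) and with 1 array left out (circles for wild type, triangles for knockout). All 4 intervals include 0, Hcn3 stays below 0 and Pex5l above 0 whichever array is left out, and Hcn2 and Hcn4 fall on both sides.

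Array by array, the 4 genes did not share one pattern. Relative to its own mean over the 6 arrays, Hcn2 was lowest on wild-type replicate 1 (-0.10) and highest on knockout replicate 1 and wild-type replicate 3 (0.08 each). Hcn3 was highest on wild-type replicate 3 (0.11) and lowest on knockout replicate 3 (-0.10). For Pex5l wild-type replicate 2 was the low array (-0.12) and knockout replicate 3 the high one (0.09). Hcn4 deviated most on knockout replicates 1 (-0.31) and 2 (0.28).

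Marker genes of other cells and tissues were read on the same arrays. Over all genes, 54.9% were higher in knockout and 5.75% had an unadjusted limma p under 0.05. Of 17 measured oligodendrocyte and myelin genes, 17 were lower in knockout, 14 of them at an unadjusted limma p under 0.05 and 0 after adjustment, with a median difference of -0.44, which was -0.28 without knockout replicate 2. Their mean deviation was 0.21, 0.16 and 0.25 in wild-type replicates 1 to 3 and -0.19, -0.50 and 0.06 in knockout replicates 1 to 3. Of 17 interneuron markers, 15 were lower, 1 of them at an unadjusted p under 0.05 and 0 after adjustment, with a median of -0.10, deviations of 0.02 to 0.10 in wild type and of -0.06 to -0.03 in knockout. Thalamus and habenula markers, from tissue that borders the hippocampus, were lower for 10 of 18, with 0 at an unadjusted p under 0.05, a median of -0.02 that was 0.0095 without wild-type replicate 3, and deviations of -0.02 to 0.09 in wild type and -0.06 to 0.0023 in knockout. The hippocampal field markers were higher for 14 of 20, with 5 higher and 2 lower at an unadjusted p under 0.05 and 0 after adjustment. Groups did not overlap for 5 that were higher and 2 that were lower, against 6.41% and 4.45% of all genes. The median of these markers was 0.08, from 0.04 without wild-type replicate 2 to 0.13 without wild-type replicate 1. The 4 with the smallest unadjusted p were Iyd (-0.36 ± 0.07), Wfs1 (-0.25 ± 0.08), Mpped1 (0.26 ± 0.09) and Map3k15 (0.30 ± 0.12, on a dim probe set). Choroid plexus markers were lower for 8 of 10, with 1 at an unadjusted p under 0.05 (Ttr, -0.43 ± 0.18), and 4 of the 10 were above the array-wide median. Their median of -0.13 was -0.01 without knockout replicate 1 and -0.21 without wild-type replicate 1. Their mean deviation ran from -0.0028 to 0.13 in wild type and from -0.20 to 0.05 in knockout. Endothelial markers were lower for 10 of 12 (median -0.09), astrocyte markers for 7 of 12 (-0.0062) and microglia markers for 6 of 12 (0.00059), and 0 of these passed after adjustment, with 1 endothelial, 0 astrocyte and 1 microglia gene at an unadjusted p under 0.05. With the myelin deviation as a covariate in the fit, Hcn2 differed by -0.05 ± 0.14, Hcn3 by -0.12 ± 0.13, Hcn4 by -0.24 ± 0.21 and Pex5l by 0.17 ± 0.12 (standard errors), and 0 of the 4 passed. The myelin deviation largely followed genotype, so this fit cannot tell the part of myelin from that of genotype. All 4 standard errors were larger than without the covariate. The part of the other marker lists in the members' differences was not tested.

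**Figure D3:**
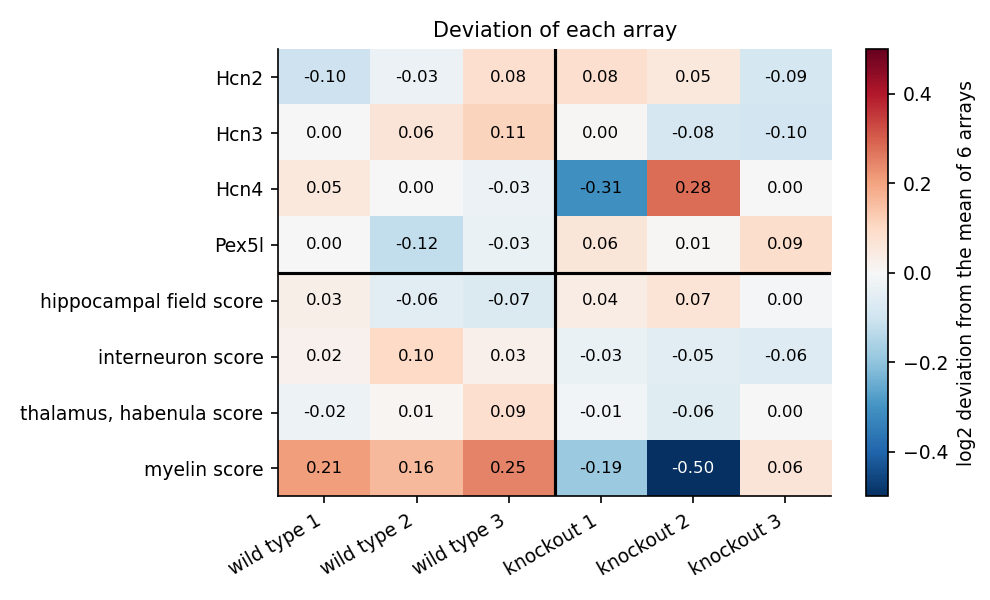
Log2 deviation of each array (columns) from the mean of the 6 arrays, for the 4 genes (upper rows) and for the mean of 4 marker lists (lower rows), with the colour scale from -0.5 to 0.5. The myelin score is above 0 on all wild-type arrays and -0.50 on knockout replicate 2, while Hcn4 is at -0.31 and 0.28 on knockout replicates 1 and 2.

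Genes whose proteins bind or regulate HCN channels went both ways. Of 15 measured partners and regulators, 8 were higher and 7 lower, 0 passed the adjusted threshold and 0 an unadjusted p under 0.05. Their median difference was 0.0038, and the range was -0.16 to 0.13. Kcne2, a small membrane subunit that can join HCN channels, was dimmer than the array-wide median and differed by -0.16 ± 0.11, with -0.08 without wild-type replicate 2, -0.25 without wild-type replicate 3 and -0.34 with the myelin covariate. It is also known from choroid plexus, whose markers are given above, and their part in its value was not tested. Nedd4l, a ubiquitin ligase that acts on channel proteins, differed by 0.13 ± 0.09, with -0.05 under the myelin covariate, 0.08 without wild-type replicate 3 and 0.20 when knockout replicate 3 was left out. Grasp, the scaffold protein tamalin that binds HCN2, differed by 0.13 ± 0.11, with 0.06 without wild-type replicate 1 and 0.22 without wild-type replicate 2. Prkg2, a cyclic GMP-dependent kinase, was also dimmer than the array-wide median. It differed by -0.13 ± 0.11, with -0.22 without wild-type replicate 1 and -0.04 without knockout replicate 1.

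The CNG channels and the Kcnh potassium channels are related to the HCN family by their cyclic nucleotide-binding fold. Of their 14 measured genes, 11 were lower in knockout, where 54.9% of all genes were higher. Their median difference was -0.05, and 0 passed the adjusted threshold. Of the 14, only 7 were above the array-wide median, and the others were dim. Kcnh8, on a dim probe set, was at 4.50, 4.27 and 4.45 in wild-type replicates 1 to 3. In knockout replicates 1 to 3 it was at 3.71, 4.22 and 4.20. These groups did not overlap, as for 4.45% of all genes in this direction. Kcnh8 was the only one of the 14 with an unadjusted limma p under 0.05 (0.0408, adjusted p 0.853), at -0.36 ± 0.15. Its difference was -0.20 without knockout replicate 1 and -0.45 without knockout replicate 2. Kcnh2, the ERG potassium channel gene, differed by -0.18 ± 0.10, and by -0.11 without knockout replicate 2. Kcnh3 differed by -0.11 ± 0.08. Kcnh4 differed by 0.14 ± 0.09, with 0.08 without wild-type replicate 1 and 0.21 without wild-type replicate 3.

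The genes that make, break down and read cyclic AMP, the ligand of HCN channels, were higher for 15 of 24. Over all genes 54.9% were higher. The median difference of the 24 was 0.02, and 0 passed the adjusted threshold or an unadjusted p under 0.05. The phosphodiesterase genes Pde4a and Pde1a differed by 0.18 ± 0.09 and 0.15 ± 0.09, and by 0.10 each without knockout replicate 1 (Pde4a) or wild-type replicate 3 (Pde1a). Prkar1b, a regulatory subunit of protein kinase A, differed by 0.16 ± 0.09, and by 0.09 without wild-type replicate 1. Its groups did not overlap, as for 6.41% of all genes in this direction. Rapgef3, the cyclic AMP sensor EPAC1, differed by -0.17 ± 0.10, and by -0.09 without wild-type replicate 3.

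Other channels that work near the resting potential, as HCN channels do, were higher for 14 of 19, where 54.9% of all genes were higher. Their median difference was 0.07, and 0 passed the adjusted threshold or an unadjusted p under 0.05. Groups did not overlap for 4 that were higher and 1 that was lower of the 19, against 6.41% and 4.45% of all genes. Kcnj12, an inward rectifier gene, differed by 0.28 ± 0.13, and by 0.0020 ± 0.17 with the myelin covariate. Kcnk4, the potassium leak channel TRAAK, differed by 0.20 ± 0.10, and by 0.11 without knockout replicate 1. The M-current gene Kcnq3 differed by -0.13 ± 0.07, and Cacna1h, a low-threshold calcium channel gene, by 0.13 ± 0.09, with 0.07 without wild-type replicate 2 and 0.21 without wild-type replicate 1.

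Genes of peroxisome biogenesis, the setting of the PEX5L relative PEX5, were higher for 7 of 13, with a median of 0.0044, and 0 passed the adjusted threshold. Pex7, the receptor that brings a second class of peroxisomal enzymes to the import machinery together with PEX5, was at 5.95, 5.92 and 5.95 in wild-type replicates 1 to 3. In knockout replicates 1 to 3 it was at 5.71, 5.74 and 5.60. The groups did not overlap, as for 4.45% of all genes in this direction. Its difference was -0.26 ± 0.07, with a limma p of 0.00929, or 0.849 after adjustment, the only one of the 13 with an unadjusted p under 0.05. Of the other genes with the smallest p, Pex10 differed by 0.15 ± 0.10, with 0.06 without knockout replicate 3 and 0.32 with the myelin covariate. Pex11g differed by -0.17 ± 0.12, and by -0.06 without wild-type replicate 2. Pex13 differed by 0.10 ± 0.09, with 0.03 without wild-type replicate 1 and 0.16 without wild-type replicate 2.

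**Figure D4:**
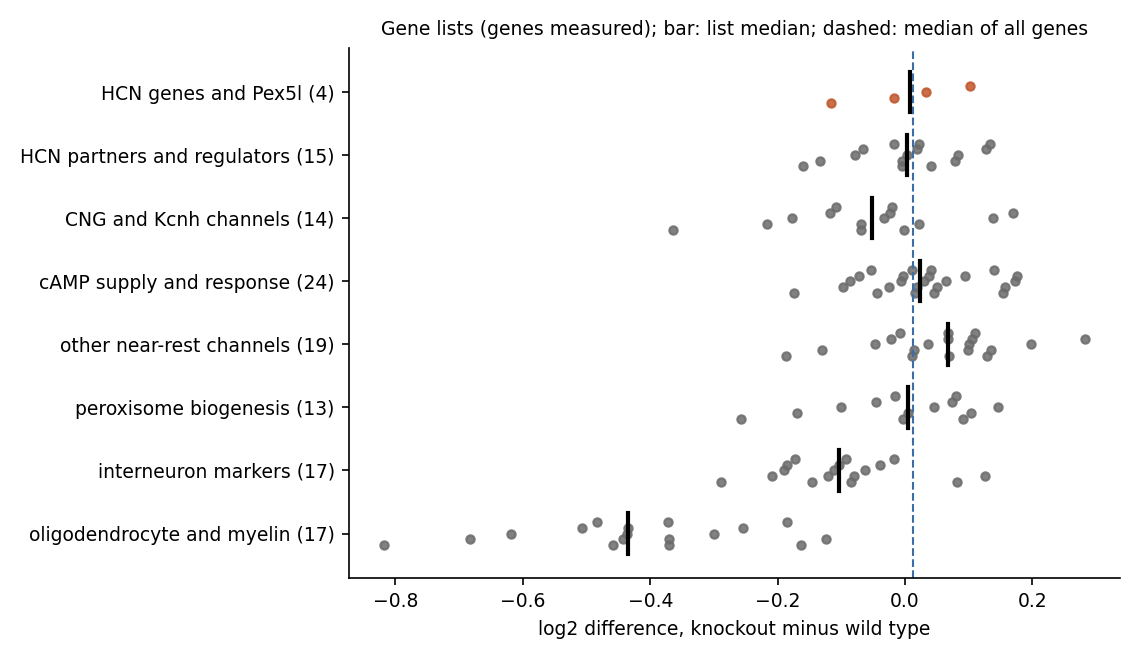
Log2 difference, knockout minus wild type, of every measured gene (points) in 8 lists, with the list median as a bar, the number of measured genes in brackets and the median of all genes as a dashed line. The 4 HCN channel and subunit genes lie between -0.12 and 0.10, inside the range of their partners (-0.16 to 0.13), while the 17 oligodendrocyte and myelin genes all lie below 0.

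By position, Hcn3 and Pex5l lie on chromosome 3, as does Trpc4, while Hcn2 is on chromosome 10 and Hcn4 on chromosome 9 in the reference table. There were 65 protein-coding genes between Pex5l and Trpc4 and 211 between Hcn3 and Trpc4. Of 1059 genes measured on chromosome 3, 5.0% were higher in all 3 knockout arrays than in any wild-type array and 5.0% lower, against 6.41% and 4.45% of all genes, and their median difference was 0.0068.

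For each member, the genes with the most similar signals over the 6 arrays were taken from 11873 to 11874 brighter genes by Pearson's r, as a description only. With so few arrays, 70 to 116 genes exceeded 0.9 for each member. Zfp385b (0.986) and Ythdc2 (0.982) were nearest to Hcn2, and Fkbp4 (0.987) and Mtus1 (0.986) to Hcn3. Cldn19 (0.994) and Nfe2l3 (0.993) were nearest to Hcn4, and Dnajc8 (0.996) and Mapk11 (0.987) to Pex5l. Zfp385b had the same order of arrays as Hcn2, from 7.35 on wild-type replicate 1 to 7.43 on knockout replicate 1. Dnajc8 ran from 6.62 on wild-type replicate 2 to 6.85 on knockout replicate 3, the arrays where Pex5l was lowest and highest.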

How the data were processed

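RNA of 6 hippocampus samples was measured on 1 Affymetrix array each. The authors deposited 1 table of log2 signals, for which the submitters' processing notes name RMA and Affymetrix Power Tools. The genome build and versions were not given in the sources used here. RMA equalises the arrays and hides a shift common to most genes. Titles gave each sample's genotype. Of 41345 probe sets, 23521 named 1 gene, and the one with the highest mean stood for its gene. Differences were fitted with limma 3.58.1 (R 4.3.3), genotype being the single term, with Benjamini-Hochberg adjustment over 22180 genes and a threshold of 0.05. The fit was tested on simulated data. No raw scans were used, and the number of arrays limits the precision. Named genes are the 4 members, Trpc4, up to 4 of each pathway list with the smallest unadjusted p, and the 2 most similar genes per member among those above the array-wide median, without predicted or clone names. Members and lists were chosen with earlier results of these data known. The alternatives were other scalings, a replicate block, array weights, other variance models, probe set choices, a myelin covariate and leaving out single arrays, and those for the pathway genes and Trpc4 were added after seeing the data. Figures were drawn with matplotlib 3.10.9.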

Additional observations from a re-analysis of the deposited data

How the results depend on the processing

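None of Hcn2, Hcn3, Hcn4 and Pex5l passed the adjusted threshold under any alternative run, and Hcn3 and Pex5l kept their signs under all of them. Hcn2 turned with the myelin covariate (-0.0515) and lay between -0.0103 and 0.0843 without single arrays, and Hcn4 between -0.16 and 0.13. Nedd4l also turned with the myelin covariate (-0.0519), and the cause was not tested. That covariate also moved Kcnj12 to 0.0020, Kcnh2 to -0.08, Kcnh3 to -0.17, Pde4a to 0.11, Pde1a to 0.08 and Kcnk4 to 0.13. It moved Kcne2 to -0.34, Pex10 to 0.32, Pex7 to -0.36 and the deleted gene Trpc4 from -0.70 to -0.89. Because the covariate largely followed genotype, these shifts cannot be assigned to either. Hcn4 gave no value with only probe sets above the median, which leaves it out. Without single arrays Hcn3 lay between -0.15 and -0.09, and Pex5l between 0.07 and 0.13. Over all genes, the 0 calls at an adjusted p under 0.05 became 1 with trend and robust variance, which was Trpc4 (-0.70, adjusted p 0.0378), and 0 to 1 without single arrays. At an unadjusted p under 0.05 it was 1276 genes, and 901 to 1442 under the alternatives run. The 901 came from the run with only probe sets above the median, which tested 12978 genes and not 22180. With trend and robust variance 1379 genes had an unadjusted limma p under 0.05. Among them were Pde4a (0.043), Prkar1b (0.041), Pde1a (0.033), Kcnk4 (0.047) and Kcnq3 (0.024), which were above 0.05 in the main fit. Their adjusted p in that run was 0.782 to 0.801. Same-numbered samples deviated together with correlations of 0.07, 0.03 and -0.0038, and the other pairs ran from -0.06 to 0.03. The labels do not say what the shared numbers stand for, and these correlations cannot settle it. With the replicate block 1316 genes had an unadjusted p under 0.05, and the 4 differences were as before, with adjusted p 0.883 to 0.992. The lowest limma adjusted p of any gene was 0.176 with the block and 0.738 without it. Depth is not defined for arrays, and 1 of the 4 genes, Hcn4, was dimmer than the array-wide median.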
